A study of Mus musculus with 17 samples.

Results

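Lcn2, S100a8, S100a9, Ngp, Camp and Ccl12 encode inflammatory proteins of neutrophils, reactive glia and macrophages, and they were followed in brainstem tissue of male C57BL/6 mice that the labels call locus coeruleus. These 6 genes, of 78298 in the files, were picked by symbol as a group because some untreated libraries carried high levels of several of them. Ngp and Camp were not high in controls. The levels in controls are therefore a description, and no test against controls is given for any of the 6. The level is TPM, transcripts scaled to 1000000 per library. For testing, 1 TPM was required in 5 or more libraries, which 16153 genes met. Lcn2, S100a8, S100a9 and Ccl12 passed that filter, while Ngp and Camp reached 1 TPM in no library.

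The control group was untreated (n = 6). Vindeburnol (n = 5), a synthetic compound related to vinca alkaloids, and VB-127 (n = 6), which the labels call its derivative, were each given by oral gavage in water at 20 mg/kg once a day for 5 days. Tissue was collected 24 hours after treatment. No group received gavage of water alone, so a difference from controls cannot be told apart from one due to the gavage itself. All animals shared sex and strain, and whether each library is 1 animal is not stated, so p-values measure the spread between these samples. The study, by its title, looked for the compounds' molecular target. The defining noradrenergic genes of the labelled nucleus were near 0 in most libraries: outside controls 1 and 6, Dbh was at 0 to 2.57 TPM and Slc6a2, the noradrenaline transporter gene, at 0 to 0.929 TPM. Slc6a3, of dopaminergic neurons, was at 15.2 to 124 TPM outside control 1, so most libraries held more dopaminergic than noradrenergic transcript by these markers.

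Lipocalin 2, the product of Lcn2, binds bacterial siderophores and so withholds iron; neutrophils store it in specific granules, and reactive astrocytes, endothelium and liver cells secrete it during the acute-phase response. S100a8 and S100a9 encode the subunits of calprotectin, a calcium and metal binding protein that fills the neutrophil cytosol and signals through Tlr4 and Ager. Ngp and Camp, the gene of the antimicrobial peptide cathelicidin, are transcribed mostly by neutrophil precursors in bone marrow. Ccl12 is a chemokine of macrophages and glia that draws monocytes through the receptor Ccr2. Interleukin 6, interleukin 1 and interleukin 17 induce Lcn2 through STAT3, NF-kappaB and C/EBP factors.

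The promoters of the 3 most abundant neutrophil genes of the group are shown because these genes had the same library on top and were searched for shared letters. Each sequence runs 5′ to 3′ on the gene's strand from 250 bases before to 50 bases after the RefSeq start on GRCm38.p6, an older build than the GRCm39 of the deposited values. Capitals mark TTGCNNAA, the core letters of a C/EBP site, and TATAAA.
Lcn2 promoter, chr2:32387690-32387989 (-): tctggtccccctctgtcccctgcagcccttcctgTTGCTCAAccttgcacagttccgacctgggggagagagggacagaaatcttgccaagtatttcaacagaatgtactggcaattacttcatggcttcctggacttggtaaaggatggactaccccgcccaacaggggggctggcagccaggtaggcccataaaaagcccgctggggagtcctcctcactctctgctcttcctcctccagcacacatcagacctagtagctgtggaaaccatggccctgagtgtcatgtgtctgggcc
S100a8 promoter, chr3:90668821-90669120 (+): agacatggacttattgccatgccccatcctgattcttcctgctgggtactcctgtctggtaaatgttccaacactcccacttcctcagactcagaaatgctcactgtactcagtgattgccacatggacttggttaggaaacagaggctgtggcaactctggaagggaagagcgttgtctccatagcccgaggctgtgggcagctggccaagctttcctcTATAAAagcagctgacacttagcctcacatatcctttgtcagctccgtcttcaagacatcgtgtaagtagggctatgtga
S100a9 promoter, chr3:90695672-90695971 (-): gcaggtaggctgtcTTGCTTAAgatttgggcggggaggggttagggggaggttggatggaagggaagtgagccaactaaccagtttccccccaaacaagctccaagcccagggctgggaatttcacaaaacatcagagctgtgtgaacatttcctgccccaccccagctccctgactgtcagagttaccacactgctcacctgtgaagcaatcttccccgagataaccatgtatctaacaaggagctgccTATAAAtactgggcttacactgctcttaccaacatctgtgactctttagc
The Lcn2 match to TTGCNNAA starts 216 bases before the start and the S100a9 match 236 bases before it. Over both strands, 10.8% of 32851 RefSeq promoters of that length hold these letters. This set of promoters, used for every share in this paragraph, does not cover all chromosomes. Ngp has 2 such matches, starting 138 and 11 bases before its start. TATAAA stands 30 bases before the S100a8 start and 31 bases before that of Ccl12, and 1.99% of promoters have it on the gene strand between 40 and 16 bases before the start. In S100a9 it begins at the annotated start itself. TTCNNNGAA, the STAT core found in 8.3% of promoters, was not found in these windows for any of the 6 genes, and the kappaB consensus, in 8.46% of promoters, was found in Camp alone. A match here is a description of letters and not a measured site.

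Lcn2 had the widest range in TPM of the 6 genes, and its high values sat in some of the controls. Controls 1 to 6 held 60.5, 1.43, 46.3, 6.35, 11.9 and 126 TPM. Vindeburnol libraries 1 to 5 held 2.74, 0.625, 5.89, 3.53 and 1.47 TPM, and VB-127 libraries 1 to 6 held 0.760, 0.904, 0.692, 7.00, 0.833 and 2.37 TPM. Controls 1, 3, 5 and 6 lay above every treated library, control 2 lay among the treated libraries, and the groups therefore overlapped. Among all genes tested, 0.167% had at least 4 controls above the highest treated library; since Lcn2 was chosen for this pattern, nothing is read from that share. The untreated mean was 42.0 ± 47.3 TPM (SD, n = 6), an SD larger than the mean, with a median of 29.1 TPM; here and below ± is the SD over the libraries of a group. Vindeburnol libraries averaged 2.85 ± 2.04 TPM (SD, n = 5) and VB-127 libraries 2.09 ± 2.49 TPM (SD, n = 6). The control mean was 14.7 times that after vindeburnol and 20.1 times that after VB-127. Single libraries moved these ratios in a check added after the data were seen: without control 6 they were 8.88 and 12.1, and without VB-127 library 4 the second was 37.8.

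On the log2(TPM + 1) scale, Lcn2 differed from controls by -2.62 after vindeburnol and by -3.04 after VB-127. Each was the lowest of 16153 differences in its comparison, in which the median gene lay at 0.08 and 0.11. Lcn2 was chosen for high levels in controls, so nothing is read from this rank. Both comparisons share the same 6 controls, so the 2 values are not separate observations. Control 2, at 1.43 TPM, lay near the treated median of 1.47 TPM. Controls 1 and 6 were also the libraries with the most Dbh, the noradrenaline synthesis gene, at 18.9 and 12.3 TPM, and without them the Lcn2 differences were -1.58 and -2.0. Control 3 held 46.3 TPM of Lcn2 with 1.19 TPM of Dbh, within the 0.290 to 2.57 TPM of controls 2, 4 and 5. Control 1 also stood apart in neighbouring tissue: Slc6a3 was at 1.04 TPM against 39.7 to 73.8 TPM in the other controls, and the peptide gene Cartpt at 17.6 TPM against 131 to 225 TPM. Tph2, of serotonergic neurons, was at 77.7 TPM there, within the 33.2 to 129 TPM of the other controls. The part of tissue content in the Lcn2 differences was not tested. In bulk tissue, fewer cells of a type and less RNA per cell cannot be told apart.

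**Figure D1:**
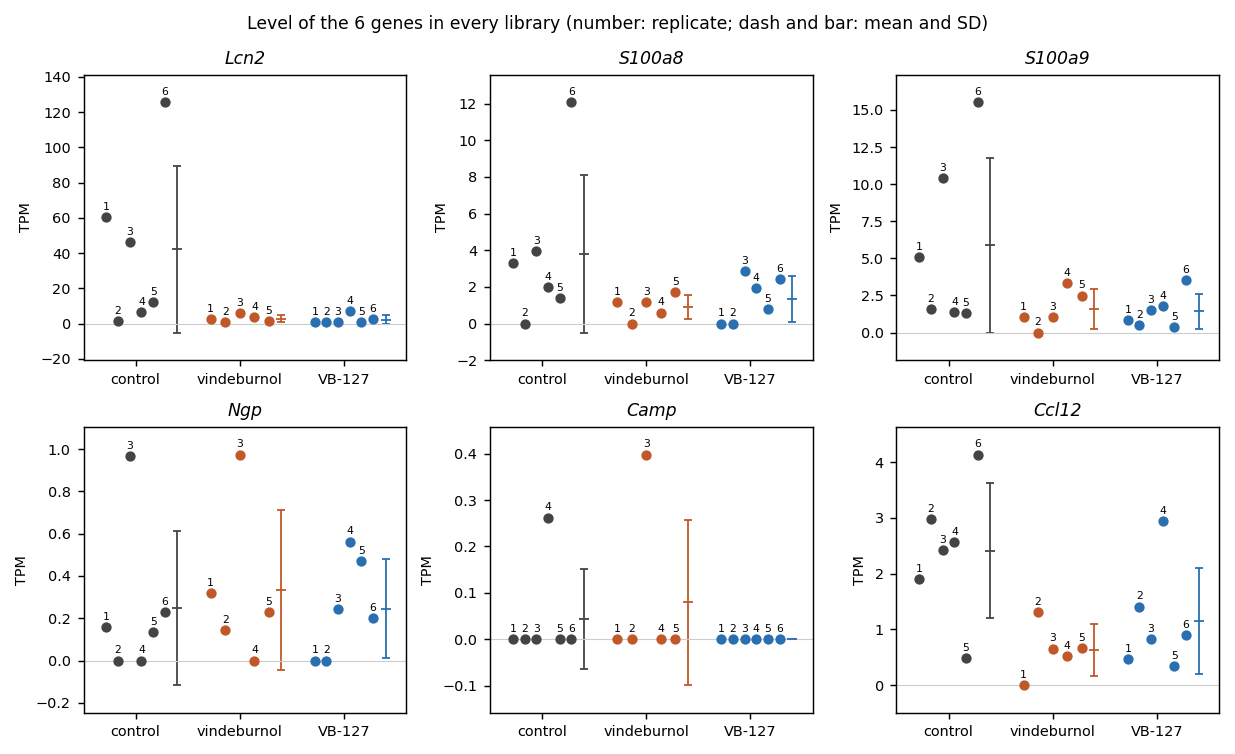
TPM of each of the 6 genes (y axes differ between panels) in every library, by group on the x axis; points are libraries with their replicate number, and the dash and bar at the right of each group are the mean and SD (n = 6, 5 and 6). Lcn2, S100a8, S100a9 and Ccl12 have their highest point in control 6, while Ngp and Camp stay under 1 TPM.

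S100a8 and S100a9 are neighbouring genes on chromosome 3, and their products work as a pair. S100a8 in controls 1 to 6 was at 3.32, 0, 3.94, 1.99, 1.41 and 12.1 TPM. After vindeburnol it ran from 0 to 1.74 TPM and after VB-127 from 0 to 2.86 TPM. Control 6 stood highest, controls 1 and 3 followed, and the other 3 controls lay inside the treated range. S100a9 in the same controls was at 5.08, 1.60, 10.4, 1.38, 1.30 and 15.5 TPM. It ran from 0 to 3.33 TPM after vindeburnol and from 0.369 to 3.54 TPM after VB-127. Thus for both genes controls 1, 3 and 6 lay above all treated libraries and controls 2, 4 and 5 did not. At least 3 such controls were found for 1.3% of tested genes. Both genes were chosen for high levels in controls, so nothing is read from that share. S100a8 averaged 3.79 ± 4.29 TPM in controls, 0.927 ± 0.655 TPM with vindeburnol and 1.34 ± 1.24 TPM with VB-127 (SD of 6, 5 and 6 libraries). Its log2 differences from controls were -0.96 and -0.81, in the same order, -0.59 and -0.43 without control 6, and -0.42 and -0.27 without controls 1 and 6. S100a9 means were 5.88 ± 5.89, 1.589 ± 1.318 and 1.42 ± 1.18 TPM, and its log2 differences were -1.13 and -1.18, or -0.63 and -0.68 without controls 1 and 6. For both genes the control SD was about as large as the control mean.

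Ngp and Camp, the genes of neutrophil precursors, were near 0 in all groups. Ngp reached 0.968 TPM in control 3 and 0.974 TPM in vindeburnol library 3, and 5 of 17 libraries were at 0. Control 6, with the most Lcn2, held 0.227 TPM of Ngp. Its means were 0.248 ± 0.364 TPM in controls, 0.333 ± 0.377 after vindeburnol and 0.246 ± 0.234 after VB-127. Spearman's rho of Ngp with Lcn2 was 0.22 over 17 libraries and 0.81 within the 6 controls. Camp was listed at 0 in 15 of 17 libraries, with 0.262 TPM in control 4 and 0.398 TPM in vindeburnol library 3. Read depth is unknown, so how few reads these values stand for cannot be given.

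Ccl12, the chemokine gene, showed another order of controls. It was at 1.89, 2.98, 2.42, 2.57, 0.477 and 4.14 TPM in controls 1 to 6. It ran from 0 to 1.30 TPM after vindeburnol, and from 0.344 to 2.94 TPM after VB-127. Control 2, which had little Lcn2, was here the second highest library, and control 5 lay among the treated ones. Controls 2 and 6 lay above all treated libraries, and at least 2 such controls were found for 5.79% of tested genes. Ccl12 was chosen for high levels in controls, so nothing is read from that share. Ccl12 averaged 2.41 ± 1.21 TPM in controls, 0.628 ± 0.465 TPM with vindeburnol and 1.15 ± 0.953 TPM with VB-127 (SD of 6, 5 and 6 libraries). The log2 differences from controls were -1.02 and -0.67, and without controls 1 and 6 they were -0.89 and -0.54.

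Vindeburnol against VB-127 is the comparison whose difference does not use the controls by which the genes were chosen. The 2 groups are matched in dose and time and are the only pair of compounds. The model estimated spread over all 17 libraries, so the scatter of the controls enters the SE, intervals and p-values below. Of 16153 genes, limma called 0 (0%) at an adjusted p under 0.05, and 546 had an unadjusted p under 0.05. Lcn2 differed by 0.42 on the log2(TPM + 1) scale (SE 0.86, 95% interval -1.42 to 2.26), vindeburnol minus VB-127. For S100a8 the difference was -0.15 (interval -1.26 to 0.95) and for S100a9 it was 0.05 (interval -1.06 to 1.16). Ccl12 differed by -0.35 (interval -0.98 to 0.28). It reached 1 TPM in 5 controls but in 3 of 11 treated libraries, so it entered the test through the controls. Most Ccl12 values compared here are under 1 TPM, so its difference is a description and nothing is read from its interval. The limma adjusted p was 1.00 for Lcn2, S100a8 and S100a9. No difference between the compounds was detected for these genes. The intervals above leave room for Lcn2 differences of over 1 log2 unit either way. With only the 2 groups in the fit, the Lcn2 interval was -0.54 to 1.37. There it passed 1 log2 unit only toward higher levels with vindeburnol. The compounds are therefore not shown to act alike on Lcn2. The S100a8 and S100a9 estimates changed sign under some settings.

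**Figure D2:**
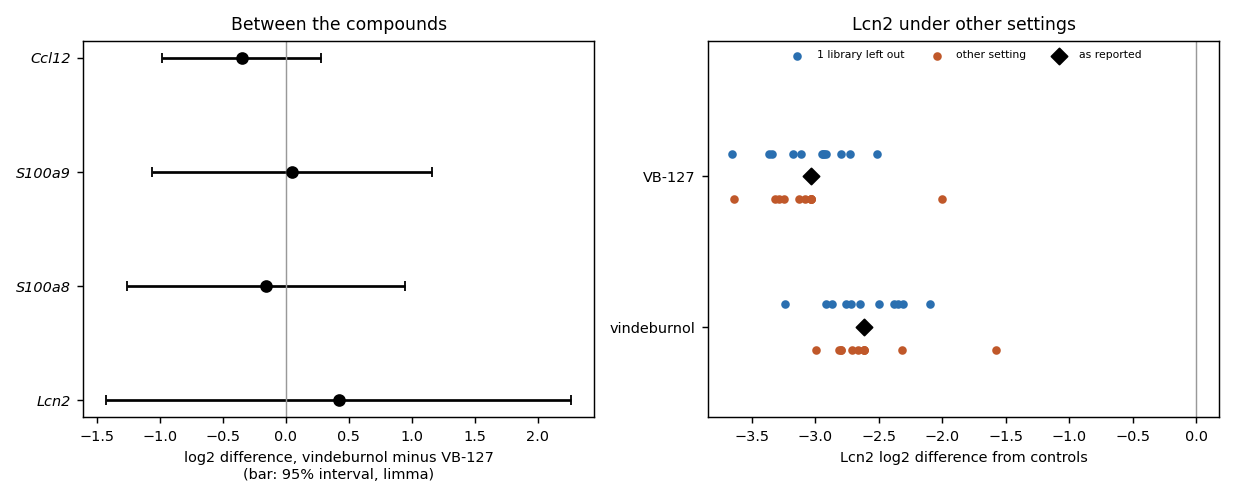
Left, log2(TPM + 1) difference between vindeburnol and VB-127 for the 4 genes that passed the filter, with limma 95% intervals, all of which span 0. Ccl12 passed through the controls, so nothing is read from its interval. Right, the Lcn2 difference of each compound from controls as reported (-2.62 and -3.04), with 1 library left out, and under each other setting; the value nearest 0 for each compound comes without controls 1 and 6.

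Lcn2, S100a8 and S100a9 moved together over the libraries, mainly through the controls. Over 17 libraries, Pearson's r of log2(TPM + 1) was 0.79 between Lcn2 and S100a8 (Spearman's rho 0.66), 0.83 between Lcn2 and S100a9 (rho 0.69) and 0.82 between S100a8 and S100a9 (rho 0.75). Within the 6 controls alone r was 0.94, 0.87 and 0.85, and within the 11 treated libraries it was 0.39, 0.49 and 0.65. Without controls 1 and 6, the libraries farthest from the median Lcn2 level, r was 0.61, 0.69 and 0.67. Points of 1 library share its tissue piece and its scaling to a fixed total, and the genes were chosen together, so these values are descriptions. Ccl12 followed Lcn2 less closely, at r = 0.54 over all libraries, 0.19 within controls and 0.23 within treated libraries. Ngp had r of 0.30 with Lcn2 over all libraries, 0.54 within controls and 0.59 within treated libraries. Camp had r of 0.05, -0.35 and 0.49 in the same order. Both genes stayed under 1 TPM, so these values rest on levels near 0. Whether these correlations differ from one another was not tested.

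Among 12253 candidate genes that averaged at least 2 TPM and carry a named symbol, Lrg1 had the pattern most like Lcn2. Lrg1 encodes a secreted leucine-rich glycoprotein of the acute-phase response, made by liver, neutrophils and activated endothelium. Its r with Lcn2 was 0.90 over 17 libraries (rho 0.88), 0.91 within controls, 0.91 within treated libraries and 0.90 without controls 1 and 6. The median r of all candidates was -0.08, the 95th percentile 0.32, and 12 candidates (0.0979%) exceeded 0.7. Within the 6 controls alone 215 candidates (1.75%) exceeded 0.9, and Cp, S100a8 and Ly6a, at 0.94, 0.94 and 0.93, were above Lrg1, which was not among the 10 highest there. Lrg1 was at 4.94, 0.282, 11.5, 3.65, 2.40 and 14.4 TPM in controls 1 to 6. It ran from 0.368 to 5.86 TPM after vindeburnol and from 0.398 to 3.34 TPM after VB-127. Vindeburnol library 3 and VB-127 library 4, the highest of their groups for Lcn2, were also the highest of their groups for Lrg1.

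The other 9 genes most like Lcn2 were S100a9 (0.83), Ly6a (0.80), S100a8 (0.79), Srarp (0.76), Pglyrp1 (0.76), Cp (0.73), Selenop (0.72), Hspa1b (0.72) and Scrg1 (0.71), each with its r over 17 libraries. All 10 had their highest value in control 6, which the choice by likeness to Lcn2 largely fixes. Pglyrp1 encodes a peptidoglycan recognition protein of neutrophil granules and had r = 0.65 within treated libraries. It was at 51.7 TPM in control 6 and 42.6 TPM in control 3, against 15.4 to 36.2 TPM in the other controls and 20.5 to 38.0 TPM in treated libraries. Ly6a, a surface antigen of brain endothelium and blood progenitors, was at 121 and 111 TPM in controls 6 and 3 and at 47.1 to 76.9 TPM in treated libraries. Cp, which encodes the copper carrier and ferroxidase ceruloplasmin, was at 20.5 and 18.4 TPM in controls 6 and 3 and at 4.25 to 14.2 TPM in treated libraries. Outside Lrg1 and Pglyrp1, r within the 11 treated libraries was 0.07 to 0.49 for these genes. Dbh had r = 0.70 over all libraries, -0.32 within treated libraries and 0.17 without controls 1 and 6.

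**Figure D3:**
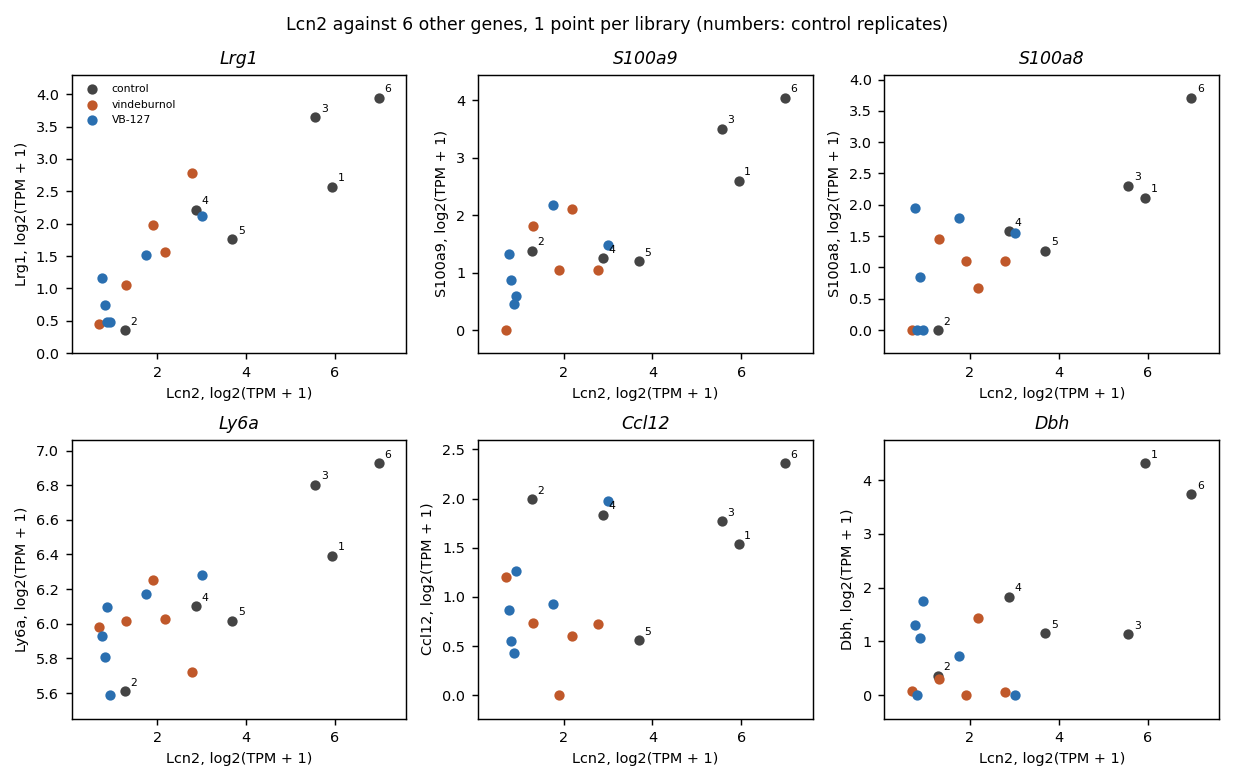
Level of 6 genes (y axes) against Lcn2 (x axis), both as log2(TPM + 1), 1 point per library and coloured by group, with control replicates numbered. Lrg1 follows Lcn2 both within controls and within treated libraries (r = 0.90 over 17 libraries), S100a8, S100a9 and Ly6a mainly through controls 1, 3 and 6, and Ccl12 and Dbh less closely.

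Beyond the 6, most genes typical of neutrophils were low, while some list members that other cells also express were abundant. Against controls, limma called 0 (0%) of all 16153 genes for vindeburnol and 1 (0.00619%) for VB-127. Nothing is therefore read from 0 calls in a list, here or in the lists below. Of 14 genes of specific granules and late neutrophil precursors, 3 passed the filter and 0 were called against either compound; 8 stayed under 1 TPM in all libraries and Itgb2l was at 0. Retnlg, a resistin-like gene of neutrophils, was at 1.22, 0.857, 3.33, 0, 0 and 4.15 TPM in controls 1 to 6 and at most 0.610 TPM in treated libraries. Its high values stood in controls 3 and 6. Chil3 of this list was at 0.602, 0.878 and 0.519 TPM in controls 1, 3 and 6 and at most 0.323 TPM in treated libraries. Of the 13 list genes above 0 in any library, 7 were highest in control 1, 3 or 6. The same count was 11 of 19 for mature neutrophil genes, 6 of 16 for acute-phase genes, 13 of 21 for reactive astrocyte genes and 7 of 26 for chemokine genes. Among all genes tested, 25.5% were highest in a control of any number. Such peaks were therefore not particular to this list. The list summed to 76.4 and 61.0 TPM in controls 6 and 3, mostly Pglyrp1. It summed to 34.1 to 55.3 TPM in the other controls, 33.7 to 52.7 after vindeburnol and 33.9 to 46.7 after VB-127. Ltf, encoding the iron-binding granule protein lactoferrin, peaked at 0.705 TPM in vindeburnol library 3, and Mmp8, a neutrophil collagenase, at 0.309 TPM in control 6. Wfdc21 was at 1.33 TPM in control 1, 0.677 TPM in control 3 and 0 in all others. Neutrophils' defining surface gene Ly6g was above 0 in control 3 (0.437 TPM) and VB-127 library 3 (0.173 TPM) alone, and the chemokine receptor gene Cxcr2 reached 0.239 TPM in control 6. Of 10 azurophil granule genes of promyelocytes 5 were tested and 0 called. Their sum, 307 to 442 TPM in controls, 334 to 467 after vindeburnol and 322 to 434 after VB-127, was mostly Gstm1, a glutathione transferase gene of astrocytes too, at 266 to 430 TPM. The protease gene Ctsc was at 2.17 to 6.67 TPM. Mpo, Elane and Ctsg, the enzymes that define these granules, reached 0.380, 0.140 and 0.456 TPM, none of them in controls 1, 3 or 6.

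Of 22 mature neutrophil genes, 5 were tested and 0 called; 16 stayed under 1 TPM in every library, and Trem3, Stfa2 and Clec4e were at 0. The summed level of this list was 9.49 to 23.0 TPM in controls, 10.7 to 14.4 after vindeburnol and 9.80 to 17.3 after VB-127, with controls 6 and 3 highest at 23.0 and 20.1. Its tested members had median differences of -0.19 and -0.12 from controls, against 0.08 and 0.11 over all genes. Csf3r and Itgam, the most abundant of them with Hdc and Mmp9, are also expressed by microglia, and Hdc by histamine-making cells. The part of blood or marrow neutrophils in the Lcn2, S100a8 and S100a9 levels was not tested.

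Of 21 acute-phase genes, Lrg1 and Cp included, 12 stayed under 1 TPM in every library. The filter was passed by 6 and 0 were called, with median differences of -0.23 after vindeburnol and -0.09 after VB-127. Orm1, Orm2, Apcs, Fgb and Crp were at 0 in all libraries. Serum amyloid gene Saa3 reached 1.08 TPM in control 1 and was at 0 in control 6, and haptoglobin (Hp) reached 0.994 TPM in control 1. Serpina3n, an astrocyte protease inhibitor often induced with Lcn2, was at 21.0 ± 6.12 TPM in controls, 20.6 ± 4.67 TPM with vindeburnol and 19.7 ± 4.42 TPM with VB-127. Control 6 was its highest library, at 31.2 TPM, but control 1 was among its lowest, at 13.7 TPM.

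**Figure D4:**
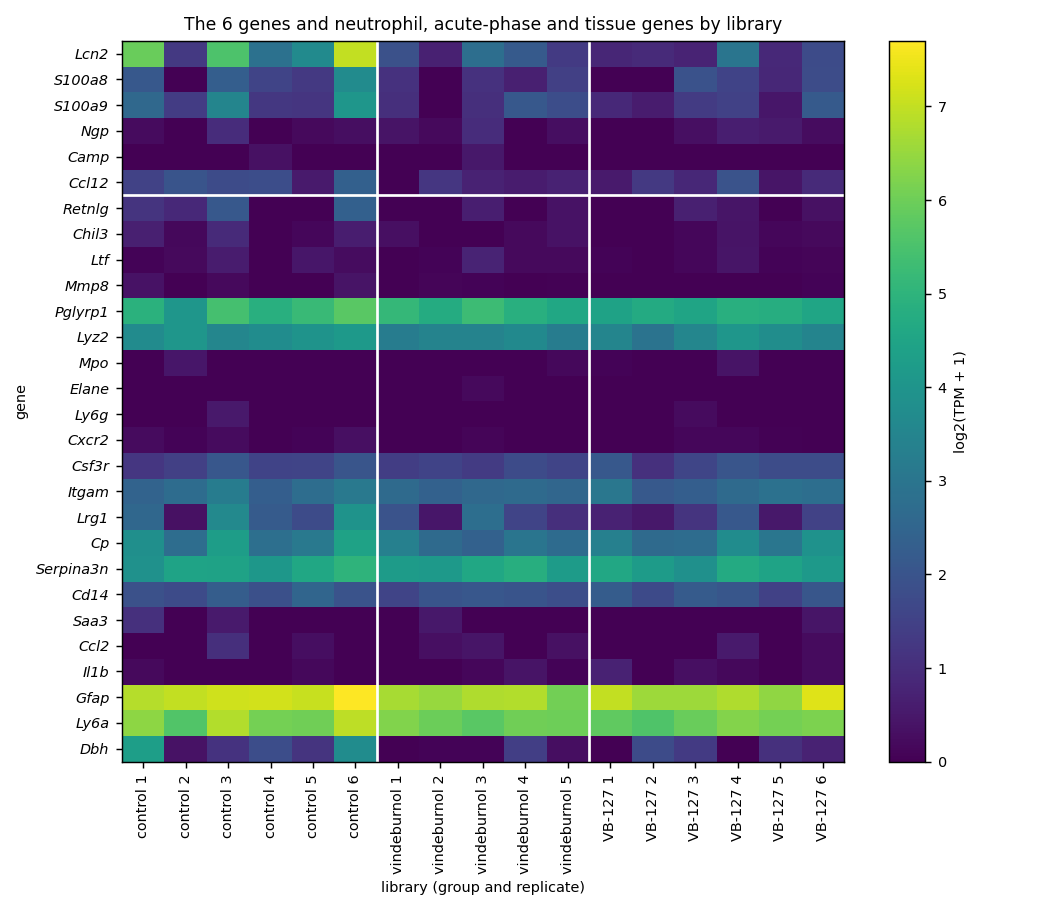
Colour gives log2(TPM + 1) for the 6 genes (above the horizontal line) and 22 neutrophil, acute-phase, cytokine and tissue genes in each library; vertical lines separate the groups. Lcn2, S100a8, S100a9, Retnlg and Lrg1 are bright in controls 3 and 6, while Mpo, Elane, Ly6g and Cxcr2 are near 0 throughout.

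Cytokines that induce Lcn2 were at the limit of what these libraries show. Il17a and Csf3 were at 0 in all libraries, Il6 reached 0.714 TPM, Il1b 0.667 TPM and Tnf 0.479 TPM, and each of these 3 peaks was in a VB-127 library. Il6, Tnf and Il1b were at 0 in controls 3 and 6. Of 31 cytokine, NF-kappaB, STAT3 and C/EBP genes, 19 were tested and 0 called, and their median differences of 0.04 and 0.08 were near those of all genes. Nfkbia, the inhibitor of NF-kappaB that it also induces, was at 21.0 ± 4.05 TPM in controls and 40.4 ± 16.9 TPM after vindeburnol, a log2 difference of 0.84 with a limma adjusted p of 0.425. After VB-127 Nfkbia was at 27.1 ± 7.34 TPM, a log2 difference of 0.34 with a limma adjusted p of 0.565. Stat3 was at 18.1 ± 2.83 TPM in controls and 19.7 ± 3.49 and 19.8 ± 2.31 TPM after vindeburnol and VB-127. Cebpd, which encodes a C/EBP factor of the acute phase, was at 1.57 ± 0.317, 2.40 ± 0.539 and 1.45 ± 0.474 TPM in the same order.

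Receptors for the proteins differed widely in level. Slc22a17, the lipocalin 2 receptor of brain, was at 440 ± 35.3 TPM in controls, 535 ± 51.5 after vindeburnol and 507 ± 21.4 after VB-127, with log2 differences of 0.28 and 0.21 and limma adjusted p of 0.404 and 0.461. Bsg, a calprotectin receptor abundant on brain endothelium, was at 679 ± 80.8, 690 ± 88.4 and 705 ± 25.6 TPM. Tlr4 stayed under 1 TPM in all libraries, and the Ccl12 receptor gene Ccr2 stayed at or under 0.264 TPM. Of 15 such genes 7 were tested, with 0 called.

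Of 26 chemokine genes other than Ccl12, 10 were tested and 0 called. Next to Ccl12 on chromosome 11 lie Ccl7, Ccl11, Ccl8 and Ccl1, and none of them exceeded 1.53 TPM, the Ccl8 level in control 1. Ccl2, which shares the Ccr2 receptor, reached 1.07 TPM in control 3 and was at 0 in control 6. Of 14 other S100 genes 8 were tested and 0 called; S100a10 was at 47.7 ± 11.2 TPM in controls and 34.1 ± 10.3 and 41.4 ± 5.39 TPM after vindeburnol and VB-127. Iron handling genes, on which lipocalin 2 bears, had 14 of 15 tested and 0 called, with medians of 0.06 and 0.09. Among 21 reactive astrocyte genes 14 were tested and 0 called, with medians of -0.07 and -0.03. Gfap, the astrocyte filament gene, was at 207 TPM in control 6 against 113 to 145 TPM in the other controls and 65.9 to 160 TPM in treated libraries.

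Tissue content differed between libraries. Between 21016 and 26993 genes were above 0 in a library. Mitochondrially encoded transcripts took 8.59% to 14.8% of the TPM total. Among controls their share was 12.9%, 12.3% and 14.8% in replicates 1, 3 and 6 and 8.59% to 10.3% in the others; vindeburnol library 1 had 13.1% with 2.74 TPM of Lcn2. Erythrocyte genes summed to 896 to 2042 TPM in controls, 1411 to 2525 after vindeburnol and 1539 to 2346 after VB-127. In controls 1 to 6 the sums were 1662, 896, 1310, 2042, 1558 and 1013 TPM, so controls 3 and 6 were not high in these genes. Brain endothelium markers summed to 254 to 415 TPM in controls, 277 to 363 after vindeburnol and 273 to 356 after VB-127, and microglia markers to 336 to 511, 336 to 401 and 328 to 432 TPM. Endothelium was highest in controls 6 and 3, at 415 and 404 TPM, and microglia in the same controls, at 511 and 436 TPM, with control 1 at 301 and 350 TPM. Border macrophage markers were highest in controls 3 and 1, at 9.67 and 7.56 TPM against 3.37 to 4.96 TPM in the other controls, 4.29 to 6.15 after vindeburnol and 2.48 to 6.50 after VB-127. Lymphocyte markers were highest in control 6, at 55.2 TPM against 27.0 to 41.9 TPM in the other controls, 16.8 to 35.4 after vindeburnol and 24.6 to 51.0 after VB-127. Reactive astrocyte genes summed to 386 TPM in control 6, 294 TPM in control 3 and 213 TPM in control 1, against 231 to 286 TPM in the other controls, 185 to 234 after vindeburnol and 197 to 320 after VB-127. Choroid plexus markers summed to at most 7.91 TPM in any library. Monocyte markers summed to 8.08 to 22.1, 11.8 to 22.7 and 12.0 to 19.7 TPM. The part of any of these in the Lcn2 pattern was not tested. Across all genes limma called 0 of 16153 (0%) against controls for vindeburnol and 1 (0.00619%) for VB-127, the predicted gene Gm28119. At an unadjusted p under 0.05 there were 1319 and 1648 genes, of which 85.1% and 94.8% were higher after the compound. With median-ratio scaling the shares were 52.0% and 52.5%, and with quantile normalization 47.7% and 46.5%. Both settings bring the libraries to a common level, which by itself pulls such shares toward balance. Rescaled without Bc1 and mitochondrial genes, the shares were 52.6% and 73.4%.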

How the data were processed

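Poly(A) RNA from 17 tissue libraries was made into directional libraries, per the labels' protocols. Reads were processed with STAR and Salmon on GRCm39, per the submitters' processing notes; the role of strand in quantification, not given in the sources used here, is unknown. The deposited values are TPM as the authors computed them, 1 file per library, each totalling 1000000. TPM carries no depth, so depth is unknown and no counting interval is given. Because TPM is a share, Bc1, at 16.1% to 35.3% of a library, moves all other values; alternatives rescaled without it.

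The scale was log2(TPM + 1), a pseudocount of 1, so differences of low genes are understated. Genes with at least 1 TPM in at least 5 libraries (16153) entered 1 model in limma 3.58.1 (R 4.3.3), with group as the only term, trended robust eBayes moderation, two-sided tests and Benjamini-Hochberg adjustment over these genes; the call was an adjusted p under 0.05. It was checked on simulated data. The 6 genes, the 23 lists (262 distinct genes, 145 tested) and the tests were chosen with earlier results of these data known, so no pattern here is independent support. Named genes were the 6, the 4 most abundant of each list, called genes, the 10 most like Lcn2 by Pearson's r, and defining markers at 0; other list genes were named for their role after their values were seen. Dixon's test screened groups for outlying libraries. All 6 genes matched RefSeq promoters; motifs were searched on both strands.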

Additional observations from a re-analysis of the deposited data

Results flagged for a closer look

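On the log2(TPM + 1) scale, 41 groups of 5 or 6 libraries were checked for a single library far from the rest of its group. The check marked 3, and chance marks about 1 in 20 groups. Ngp in control 3 was at 0.968 TPM, with the other 5 controls at 0 to 0.227 TPM. Camp in control 4 was at 0.262 TPM, with the other controls at 0. Camp in vindeburnol library 3 was at 0.398 TPM, with the other vindeburnol libraries at 0. With all others at 0, any value above 0 is marked, so the rate of 1 in 20 does not hold for Camp. No Lcn2, S100a8, S100a9 or Ccl12 value was marked by this check.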

How the results depend on the processing

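Lcn2, S100a8, S100a9 and Ccl12 kept a negative difference from controls for both compounds under every alternative run. With 1 library left out, Lcn2 ran from -3.24 (without control 2) to -2.10 (without control 6) for vindeburnol and from -3.66 to -2.52 for VB-127, with the same libraries at the ends. With a pseudocount of 0.1, Ccl12 differed from controls by -1.97 after vindeburnol and Camp by -0.31 after VB-127. Between the compounds, S100a8 turned to 0.0144 with a pseudocount of 0.1 and to 0.11 with the replicate block, and ran from -0.358 to 0.0631 with 1 library left out. S100a9 turned to -0.21 with a pseudocount of 0.1 and ran from -0.18 to 0.35 with 1 library left out. Over all alternatives the limma adjusted p of Lcn2, S100a8 and S100a9 between compounds was at least 0.930. Calls for vindeburnol against controls went from 0 to 1 with rescaling without Bc1 and mitochondrial genes and with library weights. Calls for VB-127 against controls moved from 1 to 0 with a pseudocount of 0.1, with no filter and with the replicate block, to 3 with library weights, to 2 with only the 2 groups in the fit, and to 2 without controls 1 and 6, an alternative added after the data were seen; leaving out 1 library gave 0 to 1, with 0 without control 4 or 5 or VB-127 library 4, 5 or 6. The cause was not tested. Of the 10 genes most like Lcn2, 6 were shared with Spearman's rho, 6 with deviations from group means, 0 with controls alone and 2 without controls 1 and 6 (added after the data were seen). Replicate numbers did not pair the libraries: same-numbered libraries correlated at -0.20 to 0.11 in 16 pairs, and 1 library correlated best with its own number. The block left 0 calls in each comparison, with Lcn2 at -2.32, -3.04 and 0.72 for vindeburnol against controls, VB-127 against controls and between compounds. Unknown depth limits what the low values of Ngp and Camp can show.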
